A study of Mus musculus with 4 samples.

Results

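Transcription factors that pattern the embryo are a well known class of genes held silent by Polycomb, and 46 of them were followed here in mouse blood stem and progenitor cells in which the gene of the Polycomb enzyme Ezh2 was deleted. The 46 genes were taken from a list of names and are sorted here into 11 groups by family of DNA-binding protein. The rule that finds their probes uses no measured value. The members and the gene lists set beside them were, however, chosen with earlier results of these data known. The shares above background are therefore given as descriptions. All 46 were found on the array through RefSeq transcripts, with 56 probes, among 21154 genes named in the same way with 28026 probes. Of the 46, 37 had 1 probe and 9 had more.

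Bone marrow from C57BL/6 mice of the genotype JAK2V617F;Ezh2flox/flox;Cre-ERT2 was moved into lethally irradiated wild-type hosts marked by CD45.1. The Ezh2 gene was then deleted, which gives the genotype JAK2V617F/Ezh2Δ/Δ, and the hosts were given JQ1, which displaces BET bromodomain proteins from chromatin, or DMSO as the control, for 2 weeks. Marrow was sorted right after the course into LSK cells, the Lineage- c-Kit+ Sca-1+ fraction that holds the stem cells, and into MEP cells, which give rise to megakaryocytes and red cells. The groups are named by treatment and cell type, and each is 1 array of 1-colour Agilent design, made from 20 ng of total RNA. Where 4 values stand in a row they give LSK under DMSO and JQ1 and then MEP under DMSO and JQ1, unless stated. JAK2V617F, which drives myeloproliferative neoplasms, and the Ezh2 deletion were common to the 4 groups, so no comparison here is one of deleted with intact Ezh2. The promoter that drives Cre-ERT2, the age of the mice, the dose of JQ1, the number of mice per array, and whether host cells were gated out are not given in the sources used here.

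Polycomb repressive complex 2 places methyl groups on lysine 27 of histone H3 through its enzyme Ezh2 or the related Ezh1. Polycomb repressive complex 1 reads this mark, adds ubiquitin to histone H2A and compacts chromatin. Together they keep genes for other fates silent, and in mammals they bind largely at CpG-rich promoters of developmental regulators. In blood, loss of Ezh2 accelerates marrow fibrosis driven by mutant JAK2 in mice, and BET proteins bind acetylated histones at active genes.

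Each group is 1 array, so no test was run, no p-value is given, and differences are not set against replicates. Levels are log2 of the signal relative to the array's 75th percentile, a brightness that 75% of probes lie below. Differences are log2 values relative to the median gene measured on both arrays, and the error printed with them (±) is the scanner software's error of the spots, which covers neither mice nor sorts. Between 45.2% and 53.18% of probes were well above background, the DMSO MEP array having the most. That array also correlated least with the others (0.973 to 0.976 across 23013 probes, against 0.979 to 0.991 among the other arrays), and results that rest on it are given beside those that do not use it. The labelled cell types were checked on fixed markers. All 10 megakaryocyte and erythroid markers were higher by at least 2-fold in MEP than in LSK, under DMSO and under JQ1. Of 10 stem and multipotent progenitor markers, 3 were lower in MEP by 2-fold and 1 higher under DMSO, and 5 of 9 measured were lower and 1 higher under JQ1. Ly6a, the gene of the sorting antigen Sca-1, had the largest difference (-4.58 and -4.13), and Slamf1 was the higher one (2.35 and 1.18). Of 8 granulocyte and monocyte markers measured under DMSO, 3 were higher in MEP and 1 lower, with Camp (3.84) and S100a9 (3.81) the highest, and under JQ1 5 of 9 were higher, with S100a8 at 3.12 and S100a9 at 2.82. Fewer cells of a type and less RNA per cell cannot be told apart in such bulk samples.

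Most of the developmental regulators were not well above background in either cell type or under either treatment. Of the 46, 6 were above background on the DMSO LSK array, where 60.2% of all named genes were, and 8 on the JQ1 LSK array, where 61.4% of all named genes were. On the DMSO MEP array 8 were above background, against 65% of all named genes, and on the JQ1 MEP array 7, against 60.6%. In shares, this is 13.0%, 17.4%, 17.4% and 15.2% of the regulators. A gene counted here when any of its probes carried the software's mark for well above background. Of the 46, 35 (76.1%) carried it on no array, against 31.4% of all named genes, and 5 (10.9%) on all 4 arrays, against 56.9%. Another 3 carried it on 2 arrays and 3 on 1 array.

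**Figure D1:**
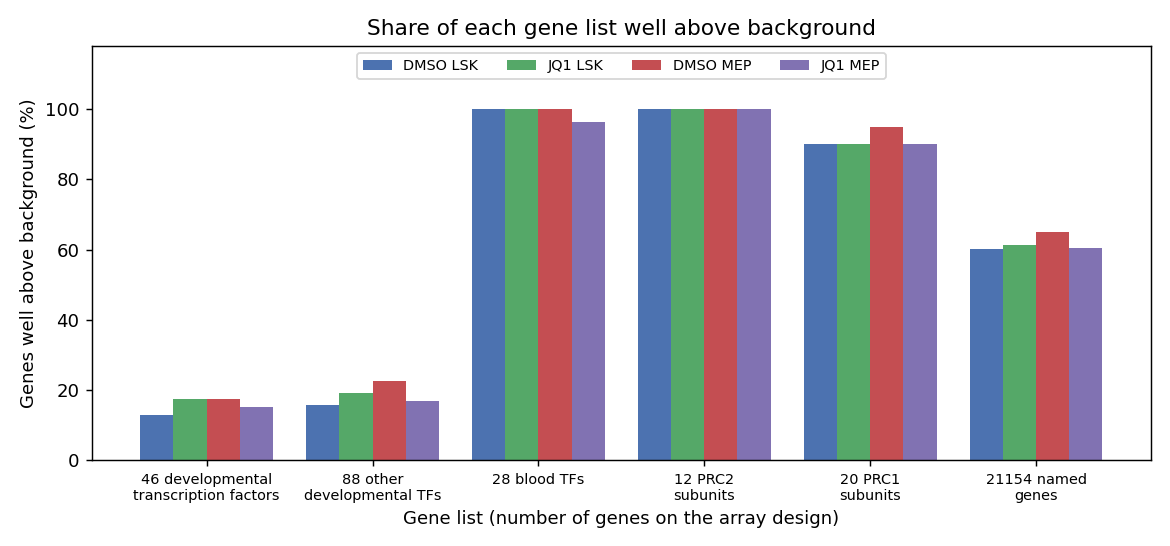
Share of each gene list that was well above background (vertical axis, percent of the genes on the array design) on each of the 4 arrays, with 1 bar per array. The 46 developmental regulators lie between 13.0% and 17.4%, close to the 88 other developmental regulators (15.9% to 22.7%) and below all 21154 named genes (60.2% to 65%), the 28 blood regulators (96.4% to 100%) and the subunits of both Polycomb complexes (90% to 100%).

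A second list of 88 developmental transcription factors, from the same kinds of families, gave 14, 17, 20 and 15 genes above background on the 4 arrays. The contrast was with the regulators of the blood lineage itself. Of 28 such factors, 28 were above background on each of the first 3 arrays and 27 on JQ1 MEP. The genes that encode Polycomb complexes were read as well. All 12 genes of complex 2 on the list were above background on every array, and of the 20 genes of complex 1, 18, 18, 19 and 18 were. Ezh2 itself read 3.36, 3.43, 3.31 and 3.69 in the same order. Its probe may lie outside the deleted part, so this level does not check the deletion.

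By family, 4 of the 11 had no gene above background on any array. Neither of the GATA factors Gata4 and Gata6, regulators of heart and gut endoderm, was above background. The same held for the paired-box genes Pax2, Pax3 and Pax6, which specify kidney, muscle precursors and eye. It also held for the T-box genes Tbx2, Tbx3 and Tbx5 of limb and heart, and for Six2, Irx3 and Irx5, which act in kidney, neural and limb patterning. Among the SOX factors, Sox9 of cartilage and Sox17 of endoderm and vessels were not above background. The forkhead genes Foxa1, Foxa2 and Foxd3, which open chromatin in endoderm and neural crest, were not either, nor were Nkx2-5 of the heart and Nkx6-1 of neural tube and pancreas.

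Of the 5 LIM homeobox genes, Lhx2, Lhx3, Lhx9 and Isl1 were above background nowhere. Of the 11 other homeobox genes, 7 were not, namely Otx2, Gsc, Dlx2, En1, Evx1, Evx2 and Barx1. Wt1 of kidney and gonad completes the zinc-finger genes without a signal. Of the 6 basic helix-loop-helix genes, 5 were not, Hand1 and Hand2 of the heart, Neurog1 and Olig2 of the nervous system and Twist1 of mesoderm. Over these 35 genes the median reading of the brightest probe was -5.32, -5.76, -6.12 and -5.59. Their highest readings were -3.47, -3.55, -4.02 and -3.84. The lowest signal of any probe called above background on those arrays was -3.38, -3.80, -4.24 and -3.64. On JQ1 LSK and DMSO MEP at least 1 of the 35 thus read higher than the dimmest called probe, and the software's mark is a property of each spot and its background.

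A weaker mark of the software, which calls a spot positive and significant over its background, split the 35 genes. Of them, 19 carried it on no array and 16 on at least 1. Nkx2-5, Nkx6-1, Neurog1 and Olig2 were among the 16 and carried it on all 4 arrays. With this mark the regulators numbered 17, 15, 22 and 16 per array, beside 73.6%, 74.1%, 78.2% and 73.9% of all named genes, and 27 of the 46 carried it on at least 1, beside 85.5%. No regulator without the stricter mark is described as expressed or changed below.

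**Figure D2:**
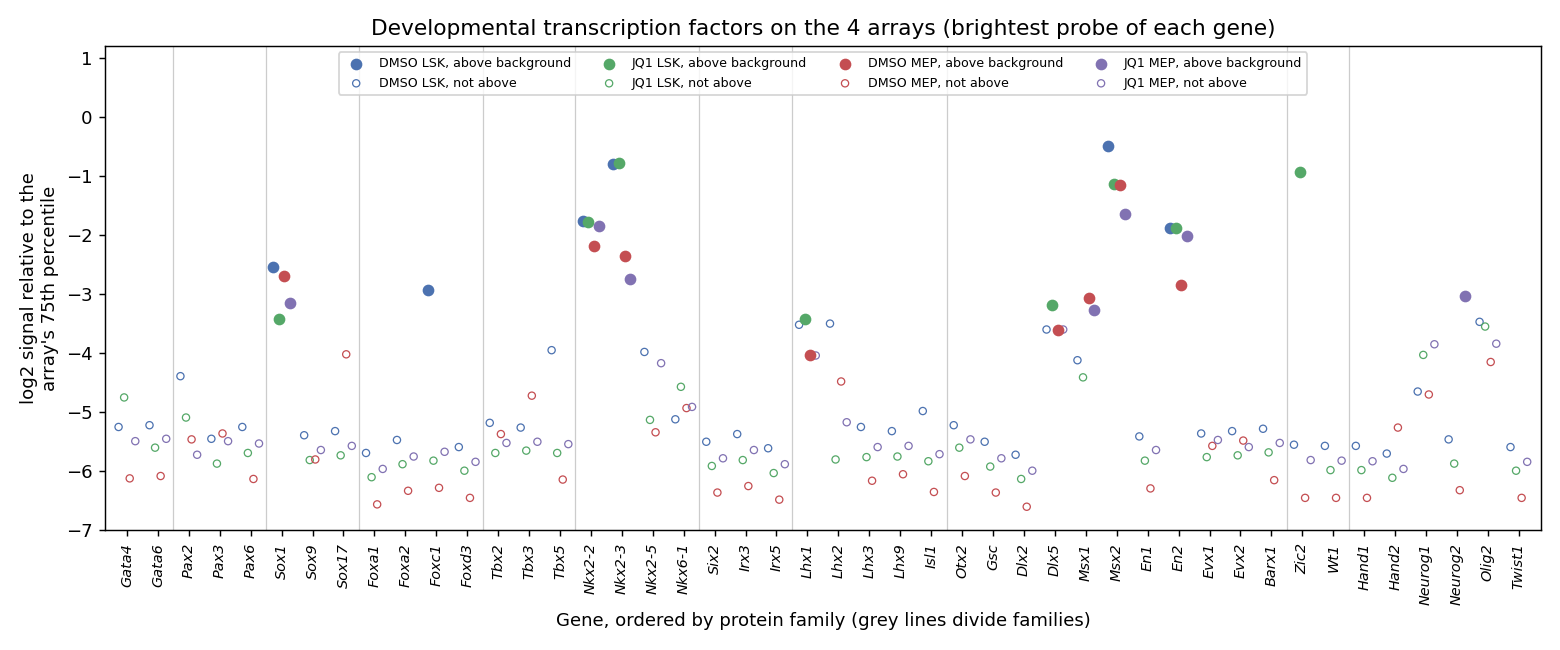
Level of the brightest probe of each of the 46 genes on the 4 arrays (vertical axis, log2 of the signal relative to the array's 75th percentile), in order of protein family, filled where the probe was well above background and open where it was not. Heights of different genes come from different probes and cannot be set against each other, and 35 of the 46 genes show open points only, most of them near the floor of each array.

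Promoter sequence was read for its CpG content, given the CpG-rich promoters at which Polycomb is known to bind. RefSeq promoters of GRCm38.p6 were at hand for 32 of the 46 genes (69.6%), which is below 80%, so a comparison of CpG content over the set is void and single promoters are described only. The motif searched was CG, which reads the same on both strands, in the 250 bases before the annotated start. The median over 32851 promoters was 6 sites, with quartiles of 2 and 16, and 92.1% held at least 1. Shown are Msx2 and Nkx2-3, read on all 4 arrays and the subject of the comparisons below. With them are the promoters with the fewest and the most sites among genes well above background on no array, Lhx9 and Barx1. Capitals mark each CG.
Msx2, chr13:53472781-53473030, minus strand: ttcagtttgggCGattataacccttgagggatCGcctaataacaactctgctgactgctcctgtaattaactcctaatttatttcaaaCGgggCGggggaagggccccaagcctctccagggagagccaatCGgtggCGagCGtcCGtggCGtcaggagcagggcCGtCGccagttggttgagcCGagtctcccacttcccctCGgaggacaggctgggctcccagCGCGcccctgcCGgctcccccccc
Nkx2-3, chr19:43612075-43612324, plus strand: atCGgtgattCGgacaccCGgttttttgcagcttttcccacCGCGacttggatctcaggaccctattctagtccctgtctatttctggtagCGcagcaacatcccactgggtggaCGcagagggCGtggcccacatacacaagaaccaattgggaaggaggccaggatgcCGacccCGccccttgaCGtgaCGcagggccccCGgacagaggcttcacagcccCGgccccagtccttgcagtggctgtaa
Lhx9, chr1:138842445-138842694, minus strand: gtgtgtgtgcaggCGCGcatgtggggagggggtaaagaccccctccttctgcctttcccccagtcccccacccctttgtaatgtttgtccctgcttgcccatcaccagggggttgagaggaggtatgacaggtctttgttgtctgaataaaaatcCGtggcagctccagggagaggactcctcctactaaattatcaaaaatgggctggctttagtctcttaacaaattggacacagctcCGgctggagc
Barx1, chr13:48662786-48663035, plus strand: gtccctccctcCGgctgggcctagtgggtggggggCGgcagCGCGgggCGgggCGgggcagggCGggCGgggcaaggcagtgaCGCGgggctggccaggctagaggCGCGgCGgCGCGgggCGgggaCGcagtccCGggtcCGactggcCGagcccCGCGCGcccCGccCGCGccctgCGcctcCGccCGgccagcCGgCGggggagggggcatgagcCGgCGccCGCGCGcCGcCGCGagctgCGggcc
These 250 bases held 16 sites in Msx2, 14 in Nkx2-3, 4 in Lhx9 and 40 in Barx1. The other genes read on all 4 arrays that had a promoter, Nkx2-2 and Sox1, held 8 and 29. A CG count in this window is a description of sequence and says nothing about methylation or Polycomb binding in these cells.

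A signal well above background on all 4 arrays was found for Sox1, Nkx2-2, Nkx2-3, Msx2 and En2. Sox1, a factor of the early neural plate, read -2.54 and -3.42 in LSK under DMSO and JQ1 and -2.70 and -3.15 in MEP, so both DMSO arrays lay above both JQ1 arrays. Sox1 had a second probe, which was above background on no array, and the same was true of Nkx2-2. Such disagreement was seen in 637 of 4091 genes (15.6%) with several probes of which at least 1 was above background on all 4 arrays. The levels of Sox1 and Nkx2-2 therefore each rest on 1 probe called above background. The second Nkx2-2 probe read -5.67, -6.08, -6.53 and -5.94. That of Sox1 read -3.86, -4.35, -3.79 and -5.51, with the software's weaker positive and significant mark on every array except JQ1 MEP. Its DMSO readings thus also lay above its JQ1 readings, though without a call.

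Nkx2-2, which specifies ventral neural progenitors and pancreatic islet cells, read -1.77, -1.78, -2.18 and -1.85. This level was lowest on DMSO MEP, although the signal before scaling was highest there (61.7, 71.3, 71.9 and 64.9 units). Nkx2-3, known for its part in spleen and gut mesenchyme and in vessels that recruit lymphocytes, read -0.80, -0.79, -2.35 and -2.75 in the same order. The LSK arrays were level with each other and both lay above the MEP arrays.

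Msx2, a homeobox target of BMP signals in skull and limb, read -0.49, -1.14, -1.15 and -1.64. It was lower on the JQ1 array in each cell type and lower in MEP under each treatment. En2, a factor of the midbrain and hindbrain, read -1.88, -1.88, -2.85 and -2.02, with DMSO MEP the lowest. Its probe was printed 10 times on each array, with an SD over spots of 0.15, 0.14, 0.20 and 0.20 log2. On JQ1 LSK 1 of the 10 spots carried an outlier mark and was left out. The error given with En2 (±) is the mean error of its single spots and is not reduced for their averaging. The other genes of this group rest on 1 spot per probe.

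The 6 genes above background on 1 or 2 arrays came from 5 of the family groups. Zic2, a zinc-finger factor of the forebrain, stood apart. Its signal was 128 units on JQ1 LSK and 4.47, 3.75 and 4.15 units on DMSO LSK, DMSO MEP and JQ1 MEP. As levels these are -0.93 on JQ1 LSK and -5.55, -6.45 and -5.81 on the other arrays, which do not approach it. Against the dimmest probe called on each array, as a lower bound relative to the median gene, Zic2 was at least 5.24-fold higher on JQ1 LSK than on DMSO LSK and at least 6.88-fold higher than on JQ1 MEP. A probe's own limit can exceed that of the dimmest called probe, which would make the fold smaller than this bound. Zic2 had 1 probe and 1 spot per array, with no outlier mark, so this reading was not repeated within the array. Of 646 genes above background on JQ1 LSK and not on DMSO LSK, 115 (17.8%) had a bound of at least 2-fold and 11, Zic2 included, had one as large.

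Foxc1, a forkhead factor of vessels, eye and the marrow stroma, was above background only on DMSO LSK, at -2.93, and read -5.82, -6.28 and -5.67 on JQ1 LSK, DMSO MEP and JQ1 MEP. As a bound, DMSO LSK was at least 1.92-fold higher than JQ1 LSK and at least 2.14-fold higher than DMSO MEP. Neurog2, a factor that turns progenitors into neurons, was above background only on JQ1 MEP, at -3.03, and read -5.46, -5.87 and -6.32 on DMSO LSK, JQ1 LSK and DMSO MEP. JQ1 MEP was at least 1.84-fold higher than DMSO MEP and at least 1.63-fold higher than JQ1 LSK. Each of these readings was again a single spot. Over all named genes, those above background on 1 array alone were 192 (0.908%) for DMSO LSK, 219 (1.04%) for JQ1 LSK, 683 (3.23%) for DMSO MEP and 194 (0.917%) for JQ1 MEP.

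Msx1, the close relative of Msx2, was above background on both MEP arrays, at -3.07 under DMSO and -3.27 under JQ1, and read -4.12 and -4.41 on DMSO LSK and JQ1 LSK. MEP was at least 1.45-fold higher under DMSO and at least 1.38-fold higher under JQ1. This pattern was shown by 238 genes (1.13%). Msx1 and Msx2 lay on opposite sides in the cell types, Msx2 being lower in MEP (-0.44 under DMSO and -0.56 under JQ1). Neither the Msx1 bounds nor the Msx2 differences reached 2-fold. Those of Msx2 were smaller than the SD between dim probes of the same gene (0.65 and 0.58). The DMSO difference of Msx2 turned with spike-in scaling (0.47).

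Dlx5, a homeobox gene of bone and limb, was called on JQ1 LSK (-3.19) and DMSO MEP (-3.60), but the uncalled readings on DMSO LSK (-3.60) and JQ1 MEP (-3.60) were at the same height. Lhx1, a LIM factor of head organizer and kidney, was called on JQ1 LSK (-3.42) and DMSO MEP (-4.04), and read -3.52 on DMSO LSK and -4.04 on JQ1 MEP without a call. For both genes the readings of the 4 arrays overlapped across the call, so these patterns separate no groups. They were shared by 189 genes (0.893%).

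**Figure D3:**
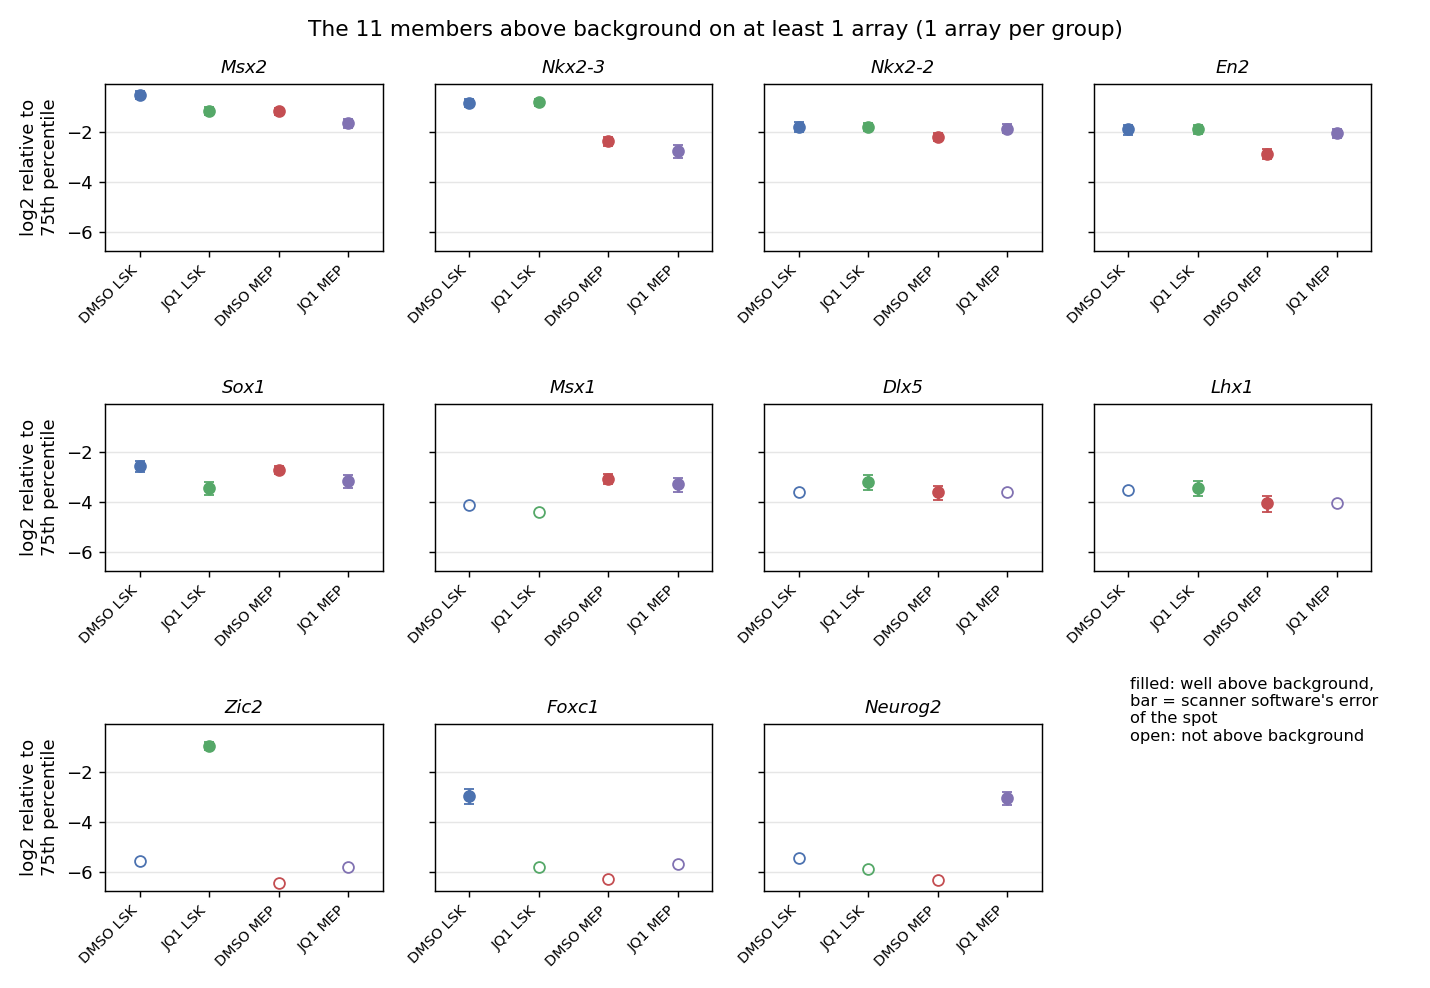
Levels (vertical axis, log2 of the signal relative to the array's 75th percentile) of the 11 genes above background on at least 1 array, with 1 point per array, filled where well above background, and bars for the scanner software's spot error. Zic2 is high on JQ1 LSK alone (-0.93), Nkx2-3 is higher on both LSK arrays (-0.80 and -0.79) than on the MEP arrays (-2.35 and -2.75), and Dlx5 and Lhx1 stay near their own level on all arrays.

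The effect of the JQ1 course on these genes was looked at in LSK cells first. No regulator above background on both arrays differed by 2-fold. Of 5 measured, 0 were higher, where 0.543% of all 12328 measured genes were, and 0 were lower, where 3.22% were. Among the 3642 measured genes below the 75th percentile, as these 5 are, the shares were 1.51% and 7.28%. Sox1 was the lowest, with a difference of -0.94 ± 0.35, and Msx2 read -0.72 ± 0.22. The remaining 3 lay close to the median gene, Nkx2-2 at -0.07 ± 0.26, En2 at -0.06 ± 0.26 and Nkx2-3 at -0.05 ± 0.22. These 3 took the other sign with spike-in scaling (0.56, 0.58 and 0.59). They did so too under quantile normalization (0.09, 0.11 and 0.07) and without the background filter (0.07, 0.09 and 0.1). Sox1 and Msx2 were below the median gene by more than their spot error. Against that, different probes of the same gene, both dim, differed with an SD of 0.53 in this comparison. The median of the 5 was -0.07, beside 0.0 over all measured genes by construction. A signal on JQ1 LSK alone of the pair was given by 3 of the 46 (Zic2, Dlx5 and Lhx1), beside 3.05% of all named genes, and on DMSO LSK alone by 1 (Foxc1), beside 1.86%.

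The same question was put to MEP cells, with the DMSO MEP array that stands apart. Of 6 measured regulators, 0 were higher by 2-fold, beside 0.98% of all 12549 measured genes, and 0 were lower, beside 5.77%. Below the 75th percentile the shares were 2% and 11.5% of 3901 genes. Msx2 read -0.82 ± 0.23, Sox1 -0.79 ± 0.31 and Nkx2-3 -0.74 ± 0.31, each below the median gene by more than the spot error. Under quantile normalization Sox1 (-0.08) and Nkx2-3 (-0.07) were within that error of 0. With spike-in scaling Msx2 (-1.35), Sox1 (-1.31) and Nkx2-3 (-1.26) each passed 2-fold. Msx1 read -0.53 ± 0.34, and 0.19 under quantile normalization. Nkx2-2 was at the median gene (0.0 ± 0.25), and read 0.59 under quantile normalization and -0.53 with spike-in scaling. En2 was above it at 0.49 ± 0.27, passed 2-fold under quantile normalization (1.14) and read -0.04 with spike-in scaling. The median of the 6 was -0.63, and dim probe pairs differed with an SD of 0.65. A signal on JQ1 MEP alone was given by 1 of the 46 (Neurog2), beside 1.17% of named genes, and on DMSO MEP alone by 2 (Dlx5 and Lhx1), beside 5.57%.

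Msx2 and Sox1 were below the median gene in both cell types, from pairs that share no array. Nkx2-3 was below it in both as well (-0.05 in LSK and -0.74 in MEP). Of the 12016 genes measured on all 4 arrays, 45.7% had opposite signs in the cell types. Of the measured genes, 5.61% lay below Msx2 and 3.61% below Sox1 in LSK, and 8.0% and 8.59% in MEP. The values of Msx2 and Sox1 stayed below the median gene or below 0 under every scaling and correction run. Msx2 lay between -0.72 and -0.08 in LSK and between -1.35 and -0.29 in MEP. Sox1 ranged from -0.94 to -0.30 and from -1.31 to -0.08. Neither passed 2-fold in LSK under any of these. In MEP both did so with spike-in scaling, which puts the median gene there at -0.53. Lymphoid markers were lower in both comparisons too, with 6 of 8 measured lower by 2-fold in LSK (median -2.39) and 4 of 8 in MEP (median -1.37). The summed signal of these 9 genes was 119, 25.4, 40.6 and 16.4 times the 75th percentile, most of it from Vpreb1, and 27.4, 7.93, 10.6 and 5.96 without that gene. Pax5, a defining factor of B cells, was above background on no array. Their part in the Msx2 and Sox1 values was not tested.

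The cell types were then compared within each treatment. Nkx2-3 was the only regulator measured on both arrays that differed by 2-fold, and it was lower in MEP under each treatment, while under quantile normalization En2 passed 2-fold as well under DMSO (-1.04). Under DMSO, 1 of 5 measured regulators was lower, beside 4.32% of all 12407 measured genes, and 0 were higher, beside 5.68%. Below the 75th percentile these shares were 8.39% lower and 8.91% higher, of 3804 genes. Nkx2-3 differed by -1.33 ± 0.24, or 2.51-fold. Under JQ1, which does not use the DMSO MEP array, 1 of 5 was lower, beside 4.01% of 12262 genes, and 0 were higher, beside 3.94%. Below the 75th percentile they were 7.33% and 6.99% of 3562 genes. Nkx2-3 differed there by -2.03 ± 0.30, or 4.08-fold, and 0.522% of the measured genes lay lower. Dim probe pairs had an SD of 0.65 under DMSO and 0.58 under JQ1. The DMSO difference was below 2-fold with normexp background correction (-0.89) and with spike-in scaling (-0.42), while the JQ1 difference ran from -2.27 to -1.02 and passed 2-fold in each alternative.

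Markers of endothelium, a tissue in which Nkx2-3 is known to act, were read beside it. Of 6 such genes, 3, 3, 4 and 4 were above background. Cdh5 and Flt4 were above background on no array. Tek was above background on both MEP arrays (-2.28 under DMSO and -2.58 under JQ1) and on neither LSK array (-3.64 and -3.68). Summed signals were 32.4, 23.6, 15.2 and 21.8 times the 75th percentile, nearly all from Kdr, and 1.01, 1.17, 1.07 and 0.61 without it. In MEP against LSK under DMSO, Kdr (-0.93) and Emcn (-0.58) were below the median gene and Pecam1 (0.58) above it. Under JQ1 all 3 measured were below it, Emcn at -2.59, Pecam1 at -0.82 and Kdr at -0.15. Their part in the Nkx2-3 difference was not tested.

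The other measured regulators were closer between the cell types. En2 read -0.75 ± 0.27 under DMSO, where quantile normalization gave -1.04 and spike-in scaling 0.16, and -0.21 ± 0.25 under JQ1. Msx2 read -0.44 ± 0.22 under DMSO, with 0.47 under spike-in scaling, and -0.56 ± 0.23 under JQ1. Nkx2-2 read -0.20 ± 0.25 under DMSO, with 0.71 under spike-in scaling, and -0.14 ± 0.25 under JQ1, with 0.04 under quantile normalization. Sox1 lay at 0.06 ± 0.28 under DMSO, -0.22 under quantile normalization, and at 0.20 ± 0.37 under JQ1, -0.04 with spike-in scaling. These last 2 genes were within their spot error of the median gene under both treatments. A signal on DMSO MEP and not on DMSO LSK was given by 3 of the 46, beside 6.25% of named genes, and the reverse by 1, beside 1.5%. Under JQ1, 2 were called in MEP only, beside 2.53%, and 3 in LSK only, beside 3.37%.

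**Figure D4:**
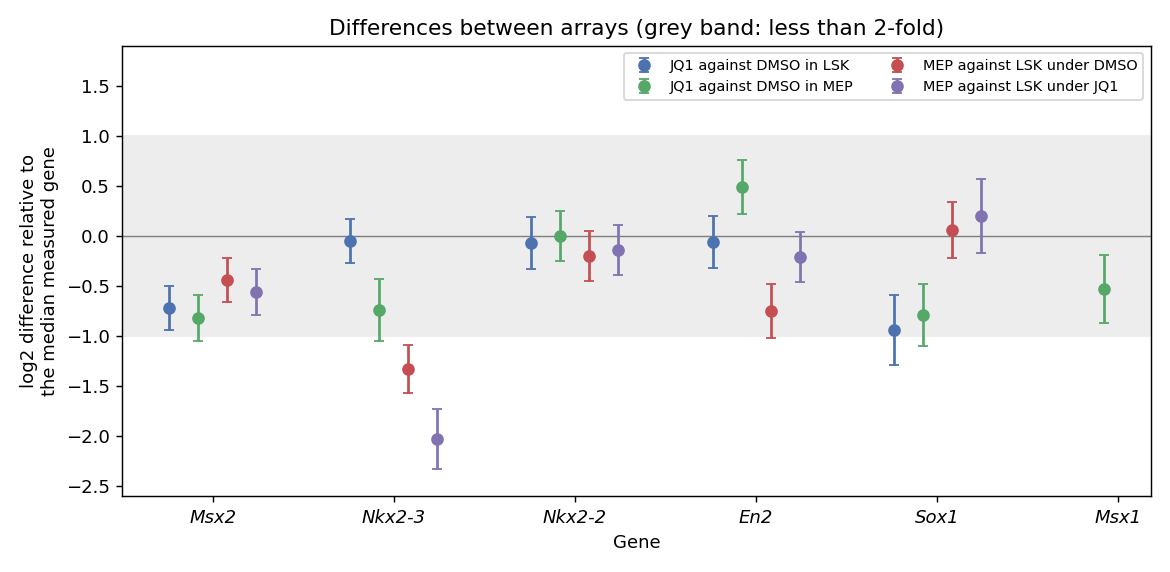
Differences of the 6 genes measured in at least 1 comparison (vertical axis, log2 relative to the median measured gene), with 1 point per comparison, bars for the scanner software's spot error, and a grey band for differences below 2-fold. Both points outside the band are Nkx2-3, lower in MEP than in LSK (-1.33 with DMSO and -2.03 with JQ1).

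Markers of stromal cells, which use several of these factors, were read on the same arrays. Of the 10 genes, 4, 5, 4 and 3 were above background, and Pdgfra, Lum, Dcn and Bglap on none. Their summed signals were 18.2, 14.9, 9.37 and 15.1 times the 75th percentile, most of it from Lepr, and 1.88, 3.31, 2.48 and 3.62 without it. The genes differed in pattern and are named here after their values were seen. Between JQ1 and DMSO in LSK, Pdgfrb (0.94) and Col3a1 (0.52) were above the median gene, Lepr (-0.55) and Col1a2 (-0.39) below it, and Cxcl12 was above background on JQ1 LSK alone (-2.22). Col3a1 was above background on the LSK arrays only, whereas Col1a2 was 4.64-fold higher in MEP under DMSO and 8.47-fold under JQ1. Col1a1 was above background on DMSO MEP alone. Their part in the Zic2 and Foxc1 readings was not tested.

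The second list of developmental regulators is given for comparison. Of its 88 genes, 14 were measured in LSK under the 2 treatments, with Sox21 higher (1.23) and Eomes lower (-1.59) on the JQ1 array, and the median was -0.26. In MEP 13 were measured, with Irx4 (2.10) and Gata5 (1.37) higher, 0 lower and a median of 0.0. Between cell types under DMSO, 3 of 14 were lower in MEP, Barx2 (-1.48), Irx4 (-1.34) and Gata5 (-1.26). Under JQ1, Sox21 (-1.59) was lower and Irx4 (1.16) higher. Irx4, an Iroquois gene of the heart ventricle, was thus lower in MEP under DMSO and higher under JQ1, and its level on the DMSO MEP array (-3.21) was the lowest of the 4.

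Among the 12 genes of Polycomb complex 2, 0 differed by 2-fold in LSK under JQ1, with a range of -0.08 to 0.36. In MEP, Phf1, an accessory subunit that binds methylated histone H3, was lower on the JQ1 array (-1.53), and the median of the 12 was -0.03. Phf1 was also the 1 gene past 2-fold between cell types under DMSO (1.44), and 0 of 12 passed under JQ1. Its level was highest on DMSO MEP, at -0.58 against -1.80, -1.37 and -1.77 on DMSO LSK, JQ1 LSK and JQ1 MEP. Of the genes of complex 1, 18 were measured in each comparison and 0 passed 2-fold in any, with medians of 0.06 for JQ1 in LSK and in MEP, and of 0.02 and -0.05 for the cell types under DMSO and JQ1.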

How the data were processed

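The authors scanned 4 arrays on 1 slide and, per the file headers, used protocol GE1_107_Sep09 of Agilent Feature Extraction 10.7.1.1 on design 028005, built on mm9. The deposited scanner output holds processed signals as intensity, after background subtraction and detrending, with marks for background, saturation and outliers. No spot was saturated. The authors' deposited table holds a linear ratio per probe and was used as an alternative.

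Signals were put on the log2 scale from the deposited intensity, averaged over spots without an outlier mark, and set relative to the 75th percentile signal of each array (210, 245, 327 and 233). Probes were named through their transcripts and RefSeq (GRCm38.p6), 28026 of 55681 (50.3%) with a single symbol. The brightest probe over the 4 arrays stood for a gene. It was measured in a comparison when well above background on both arrays, and called at 2-fold relative to the median measured gene. Regulators above background on at least 1 array are named with values, and the rest without. The members and lists were chosen with earlier results of these data known. Where a gene was called on 1 array of a pair, the bound of its fold uses the higher of its own reading and the dimmest called probe of the other array. The number of arrays limits the precision. Alternatives were 75th percentile scaling without centring, scaling to 8 spike-in probes, quantile normalization, normexp correction (limma 3.58.1, offset 50, on median signals, since mean signals were not used here), the deposited ratios, the mean over probes, no background filter, a 1.5-fold threshold and another detection mark. Python 3.11.15 and R 4.3.3 were used.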

Additional observations from a re-analysis of the deposited data

Results flagged for a closer look

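En2 was the only regulator of the 5 measured on all 4 arrays whose JQ1 differences had opposite signs in the cell types. Its JQ1 difference was -0.06 in LSK and 0.49 in MEP, so MEP minus LSK was 0.55 log2. The LSK value lies within its spot error of 0.26, which is that of single spots and not of their average. The pattern changes with the processing, as En2 had the same sign in both cell types under quantile normalization (0.11 and 1.14) and without the background filter (0.09 and 0.40). With spike-in scaling its signs were the other way round (0.58 and -0.04), and Nkx2-2 (0.56 and -0.53) and Nkx2-3 (0.59 and -1.26) took opposite signs as well. Nkx2-3 did so too under quantile normalization (0.07 and -0.07), without centring (0.01 and -0.4) and without the background filter (0.1 and -0.82). Nkx2-2 did so without centring (-0.01 and 0.34), without the background filter (0.07 and -0.09) and with the mean over probes (-0.07 and 0.03). The En2 difference between the cell types was not tested, since each group has 1 array. Opposite signs were also seen in 45.7% of the 12016 genes measured on all 4 arrays, and the MEP value rests on the DMSO MEP array.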

How the results depend on the processing

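Of 147 differences of single regulators recomputed under other processing, 105 stayed within the spot error of the value given and 42 moved by more. For En2 this error is that of single spots and not of their average. All of the 42 came from spike-in scaling (17), quantile normalization (10), normexp correction (8) and 75th percentile scaling without centring (7). The deposited ratios, the mean over probes and no background filter moved none. They keep the signal of the 1 probe above background of each gene, so they could hardly move a value. No difference past 2-fold changed sign, but only those of Nkx2-3 between cell types (-1.33 and -2.03) were past 2-fold. Smaller ones did change sign, as given above. With the positive and significant mark the regulators detected numbered 17, 15 (LSK, DMSO and JQ1), 22 and 16 (MEP), and 27 on at least 1 array. Leaving out each array in turn, an alternative chosen after seeing the data, gave 10 to 11 on at least 1. Shares of all genes called the same way stand in brackets. Without the background filter, which keeps all 46, 1 was higher (3.38%) and 4 lower (6.03%) under JQ1 in LSK, and 1 (2.81%) and 4 (10.9%) in MEP. In MEP against LSK it gave 2 (10.3%) and 4 (5.62%) under DMSO and 2 (6.08%) and 2 (7.6%) under JQ1, mostly readings at background. At 1.5-fold, 2 were lower under JQ1 in LSK (7.53%), 3 in MEP (13.7%) and 2 in MEP against LSK under DMSO (11.9%). Spike-in scaling gave 4 lower under JQ1 in MEP (17.6%) and 0 lower in MEP against LSK under DMSO (0.604%). Quantile normalization gave 1 higher under JQ1 in MEP (3.75%) and 2 lower in MEP against LSK under DMSO (6.88%), where normexp correction gave 0 lower (1.81%). For each of these the cause was not tested. The median gene lay at 0.06, 0.34, -0.22 and 0.07 log2 in the 4 comparisons with 75th percentile scaling and at 0.63, -0.53, 0.91 and -0.24 with spike-in scaling. The share of higher calls among all genes past 2-fold was 14.4%, 14.5%, 56.8% and 49.5% as given. It was 18.2%, 50.5%, 34.7% and 55.9% without centring, 86.3%, 1.56%, 98.6% and 28.6% with spike-in scaling, 21.9%, 57.6%, 40.0% and 57.5% with quantile normalization, and 36.0%, 20.5%, 64.6% and 44.4% without the background filter. Naming probes through a platform annotation was not run. No paired analysis was run, since each group has 1 array. Dim signals limit most of these genes, as all 5 read on every array lie below the 75th percentile.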
